A study of Mus musculus with 4 samples.

Results

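Histone genes were followed in mouse mucosal mast cells differentiated in culture, with or without stimulation by interleukin 18 (IL-18), an inflammatory cytokine related to IL-1. Mucosal mast cells are mast cells of the kind found in epithelia such as the gut lining. The sources used here do not give the dose and duration of stimulation, the mouse strain or age, and name no genetic change in any group. There were 4 biological replicates, each a stimulated culture (Cy5) and its own unstimulated control (Cy3) hybridised together on 1 array of 2 colours. Every array had the same dye orientation, so a dye effect specific to a probe and the effect of IL-18 cannot be told apart. The histone genes were all gene probes whose name on the array begins with Hist and a number, or with H1f, H2af or H3f: 67 probes of 47 genes among 41174 probes of 27962 gene names. Every probe and both channels were used on all 4 arrays. The name rule takes in every member whatever its value, but the family itself was selected on the log2 ratios of these same 4 arrays, so its ratios and calls are given below as a description, and their adjusted p-values are no independent support for a change of the family.

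DNA is wound around octamers of the core histones H2A, H2B, H3 and H4, and linker histones of the H1 family bind where DNA enters and leaves this particle. The clustered genes (symbols in Hist) lie in groups in the genome, are copied mainly during S phase to package new DNA, and give mRNAs that mostly end in a stem-loop instead of a poly(A) tail. The variant genes (H1f, H2af and H3f symbols here) are mostly single genes with polyadenylated mRNAs that are made throughout the cell cycle and replace the core or linker histones at particular places. How the RNA was primed for labelling is not given in the sources. Many clustered genes are nearly identical in sequence, so that a probe can also bind transcripts of other copies. The value of each such probe is therefore uncertain as the value of 1 gene.

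The promoters of 5 genes on which the results turn are shown, as RefSeq sequence of build GRCm38.p6 and in the direction of the gene. They are 2 H2B genes, the clustered gene with the largest ratio after loess (Hist2h2aa1), and the variants at the top and the bottom of the family (H2afz and H1fx). Each is the 150 bases before the annotated start and overlaps no RefSeq gene. Capitals mark matches to the octamer ATTTGCAT or to CCAAT, the letters bound by OCT factors and by NF-Y, on either strand, or to TATAAA, the TATA box, on the strand of the gene.
Hist1h2bk, chr13:22035671-22035820, plus strand: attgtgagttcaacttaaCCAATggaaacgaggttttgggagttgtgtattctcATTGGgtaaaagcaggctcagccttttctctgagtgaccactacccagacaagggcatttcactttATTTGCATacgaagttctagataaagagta
Hist1h2bm, chr13:21721894-21722043, plus strand: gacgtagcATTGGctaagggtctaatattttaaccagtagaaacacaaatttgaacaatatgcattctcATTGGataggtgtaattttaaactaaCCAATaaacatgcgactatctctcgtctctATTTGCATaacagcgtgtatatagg
Hist2h2aa1, chr3:96245347-96245496, plus strand: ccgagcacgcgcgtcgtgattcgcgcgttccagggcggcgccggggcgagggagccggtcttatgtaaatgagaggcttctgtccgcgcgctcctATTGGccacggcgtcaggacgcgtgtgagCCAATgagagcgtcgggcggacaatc
H2afz, chr3:137864337-137864486, plus strand: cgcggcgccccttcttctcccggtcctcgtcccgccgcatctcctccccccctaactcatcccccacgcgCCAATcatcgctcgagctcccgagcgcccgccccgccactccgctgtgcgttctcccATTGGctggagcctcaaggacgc
H1fx, chr6:87981483-87981632, minus strand: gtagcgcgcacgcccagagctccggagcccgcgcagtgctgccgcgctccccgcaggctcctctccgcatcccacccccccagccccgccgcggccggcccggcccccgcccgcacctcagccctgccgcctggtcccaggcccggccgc
The windows of both H2B genes hold the octamer and CCAAT, those of Hist2h2aa1 and H2afz hold CCAAT without the octamer, and that of H1fx holds none of these letters.

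Of the 67 histone probes, 60 (44 genes) passed the filter on dim probes (well above background on 3 or more arrays in either channel) and were tested, as were 24104 of all 41174 probes. Values are log2 ratios of IL-18 stimulated over unstimulated cells after background correction and loess dye normalization, so 1 means a doubling and each is relative to the trend of all probes of like brightness. A call is a Benjamini-Hochberg adjusted p under 0.05 from limma over all tested probes. In the bulk RNA measured here, a change in the number of cells of a type and a change in RNA per cell cannot be told apart. By this rule 18.1% of all tested probes rose and 16.1% fell. Among the 60 tested histone probes 35 rose (58.3%), 8 fell (13.3%) and 17 passed in neither direction. Without replicate 2 the counts were 20 and 3 of 58 tested histone probes, beside 1387 and 904 of all 23124 tested probes. Without replicate 3 they were 20 and 4 of 58, beside 1685 and 1258 of all 23272. With the ratios of the arrays scaled to a common size they were 0 and 0, as for all tested probes. The median log2 ratio of the 60 histone probes was 0.20, against 0.02 over all tested probes. The ratio had the same sign on every array for 52 of the 60 (86.7%), against 58.4% of all tested probes. The histone probes were also brighter, at a median log2 intensity of 10.2 against 8.83, and the part of brightness in these differences was not tested. The 7 probes that were not tested were above background on no array in either channel: single probes of H2afy2, Hist1h2ac and Hist1h2be, which thereby have no tested value, and a further probe each of H2afz, Hist1h1d, Hist1h2bc and Hist4h4, which have others.

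The scanner software called 49.9% to 54.0% of 43379 gene spots detected in the unstimulated channel of the 4 arrays and 57.9% to 62.7% in the stimulated channel. The number of arrays limits the precision. Replicates 1 and 2 shared a slide, as did replicates 3 and 4. All 9 mast cell markers and both mucosal mast cell markers (Mcpt1 and Mcpt2) were above background in both channels on all arrays. By brightest probe, 5 of the 9 mast cell markers rose, among them Cma1 (0.82) and Fcer1a (0.81), and 1 fell (Tpsb2, at -0.74). Gata2 is 1 of those 5, and its other tested probe was called lower. Mcpt1 rose (0.69) and Mcpt2 did not pass. Of the other lists, both genes of the basophil list (Mcpt8 and Cd200r3) were also above background in both channels on all arrays. Both rose, at log2 ratios of 0.41 and 0.24, though a further probe of Cd200r3 did not pass. Of the T cell list 1 of 5 was above background in both channels on all arrays, of the neutrophil list 0 of 4, of the eosinophil list 0 of 3 and of the B cell list 1 of 4. For the macrophage list it was 4 of 5, with mean log2 intensities of 6.85 to 10.1 against 11.5 to 17.0 for the mast cell list, and Emr1 among them rose (0.28). The counts were 1 of 4 for megakaryocyte markers (Itga2b, which fell, at -1.78), 1 of 3 for dendritic cell markers (Itgax, which fell on its brightest probe, at -0.21, and rose on its other probe) and 1 of 5 for markers of stroma and epithelium. C1qa, Cd8a, Elane, Ngp, Camp, Epx, Prg2, Ppbp and Cd209a were above background on no array in either channel. The part of these markers in the histone values was not tested.

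The clustered H2B genes had the highest median of the clustered classes after loess, though not when arrays were only centred on their medians. Of 8 tested probes 7 rose and 1 did not pass, with a median log2 ratio of 0.66 and a range of -0.03 to 0.69. Hist1h2bk was read by 2 probes. The brighter (A_52_P388224) gave 0.64, 0.63, 0.69 and 0.73 in replicates 1 to 4, a mean of 0.68 ± 0.05 (SD, n = 4; adjusted p = 0.00066 in limma). Its 4 values lay close together and far above 0. The dimmer probe (A_51_P182358) gave 0.45, 0.73, 0.87 and 0.71, a mean of 0.69 ± 0.18. For the Hist3h2bb probe the values were 0.72, 0.64, 0.68 and 0.72, a mean of 0.69 ± 0.04 (adjusted p = 0.00064), or 1.61 times the unstimulated level. The Hist1h2bm probe followed at 0.67 ± 0.08, with 0.58 the lowest and 0.74 the highest of its arrays. Hist1h2ba, the testis H2B gene, was at 0.65 ± 0.19 (0.38, 0.74, 0.82 and 0.67). These 5 probes differ in mean by less than the SD of the noisier of them. The remaining members were lower: Hist1h2bc at 0.27 ± 0.17 and Hist2h2be at 0.23 ± 0.17, both called higher, and Hist3h2ba, the probe that did not pass, at -0.03 ± 0.05 (0.00, -0.01, -0.10 and -0.01).

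**Figure D1:**
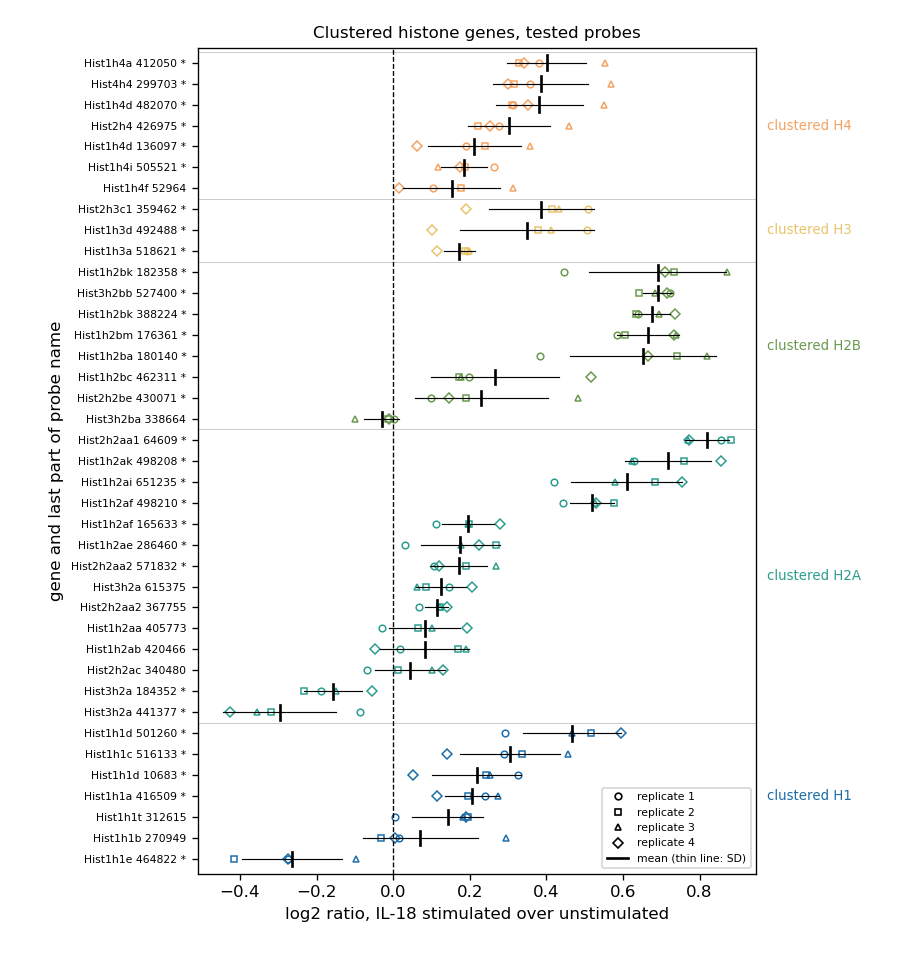
Log2 ratio of IL-18 stimulated over unstimulated cells (horizontal axis) for the 39 tested probes of clustered histone genes (vertical axis: gene and last part of the probe's name), coloured by class. Open symbols are the 4 replicates, thick marks the mean, thin lines the SD, and an asterisk marks an adjusted p under 0.05; 5 of the 8 H2B probes sit between 0.65 and 0.69.

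The clustered H2A genes were more spread. Of 14 tested probes 7 rose, 2 fell and 5 passed in neither direction, with a median of 0.15 and a range of -0.30 to 0.82. Hist2h2aa1 had the largest loess ratio of all clustered genes: 0.86, 0.88, 0.77 and 0.77 in replicates 1 to 4, a mean of 0.82 ± 0.06 (adjusted p = 0.00056), or 1.76 times the unstimulated level. It was high on each array. Hist1h2ak gave 0.63, 0.76, 0.62 and 0.86 (mean 0.72 ± 0.11) and Hist1h2ai gave 0.42, 0.68, 0.58 and 0.76 (mean 0.61 ± 0.15). For Hist1h2af the 2 probes stood at 0.52 ± 0.06 and 0.20 ± 0.07, both called higher with loess. The second is among the brightest probes of the family, and the scanner software's ratio for it averaged 0.06. Hist3h2a is the gene of this class with falling probes. Its probe A_51_P441377 gave -0.09, -0.32, -0.36 and -0.42, a mean of -0.30 ± 0.15 (adjusted p = 0.015), and A_52_P184352 a mean of -0.16 ± 0.08 (adjusted p = 0.042). The third probe of Hist3h2a was at 0.12 ± 0.06 and did not pass, so that the probes of this gene lay on both sides of 0; with arrays only centred on their medians, where the median of all tested probes was 0.43, they were at 0.23, 0.95 and 0.76. The call of its lowest probe was lost without replicate 2 (-0.29) and without replicate 3 (-0.28). The probes of the neighbours Hist1h2ba and Hist1h2aa, whose annotated starts lie 281 bases apart on opposite strands, had unlike ratios. They were 0.65 for the H2B probe and 0.08 ± 0.09 for the H2A probe, which did not pass. Their brightness was unlike too, at mean log2 intensities of 9.05 and 15.4. The part of transcripts from other copies in either value was not tested, so the ratios may not be those of these 2 genes.

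All 3 probes of clustered H3 genes rose, with a median of 0.35. Hist2h3c1 gave 0.51, 0.42, 0.43 and 0.19 (mean 0.39 ± 0.14, adjusted p = 0.0062) and Hist1h3d gave 0.51, 0.38, 0.41 and 0.10 (mean 0.35 ± 0.17, adjusted p = 0.013). The smallest was Hist1h3a at 0.17 ± 0.04. With the scanner software's own ratio all 3 calls were lost, at means of 0.12, 0.22 and 0.18 in the same order. Without replicate 2 or without replicate 3 the calls of Hist1h3d (0.34 and 0.33) and Hist1h3a (0.17 and 0.16) were lost. Each of the 3 was lowest on replicate 4.

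Of 7 tested H4 probes 6 rose and 1 did not pass. They covered a narrow range, 0.15 to 0.40, with a median of 0.30. Hist1h4a gave 0.38, 0.33, 0.55 and 0.34 in replicates 1 to 4, a mean of 0.40 ± 0.10 (adjusted p = 0.0037). Hist4h4 was at 0.39 ± 0.12, Hist2h4 at 0.30 ± 0.11, and the 2 probes of Hist1h4d at 0.38 ± 0.11 and 0.21 ± 0.12. The smaller of the 2 Hist1h4d values lost its call without replicate 2 (0.20) and without replicate 3 (0.16). The H4 probes moved together between arrays: 6 of the 7 had their highest value on replicate 3, the seventh (Hist1h4i) on replicate 1. Over all 39 clustered probes 17 were highest on replicate 3.

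Among the clustered linker histones 4 of 7 tested probes rose and 1 fell, with a median of 0.21. Both tested probes of Hist1h1d rose, to 0.47 ± 0.13 (0.29, 0.52, 0.47 and 0.60) and 0.22 ± 0.12. Hist1h1c, the brightest of them, gave 0.29, 0.34, 0.46 and 0.14 (mean 0.31 ± 0.13, adjusted p = 0.011), and Hist1h1a was at 0.21 ± 0.07. Hist1h1e went the other way, with -0.27, -0.41, -0.10 and -0.27 (mean -0.26 ± 0.13, adjusted p = 0.018), and was below 0 on every array. The linker genes of 1 cluster thus included both directions with loess. Under median centring, which removes no trend with brightness, Hist1h1e was at 0.44, beside a median of 0.43 over all tested probes. Without replicate 2 the calls of Hist1h1c (0.30), Hist1h1a (0.21), Hist1h1e (-0.22) and the smaller Hist1h1d value (0.21) were lost, and without replicate 3 those of Hist1h1c (0.25), Hist1h1a (0.18) and the same Hist1h1d probe (0.21), which also lost its call without replicate 1 (0.18). The testis linker Hist1h1t was above background in the stimulated channel on all 4 arrays and in the unstimulated channel on none. On the mean of the 4 arrays its measured stimulated level was 1.10 times the unstimulated level, and a lower bound on this was 1.09 times. For each unstimulated array the bound took the higher of the dimmest signal well above background and the probe's own. The probe's log2 ratios were 0.00, 0.19, 0.18 and 0.19 in replicates 1 to 4, and it did not pass the test (adjusted p = 0.066). More gene spots were detected in the stimulated channel on every array (57.9% to 62.7%, against 49.9% to 54.0%). In all, no clustered probe's mean was above 0.82 or below -0.30, and 27 of 39 rose while 3 fell.

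The variant genes were split: of 21 tested probes 8 rose and 5 fell, with a median of 0.03 and a range of -1.52 to 0.91. After loess both extremes of the whole family were variants.

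Both genes for H3.3, the H3 variant laid down outside DNA replication, rose with each of their probes (5 of 5, median 0.43). With the scanner software's ratio all 5 were smaller, the H3f3a probes at 0.44, 0.20 and 0.21 and the H3f3b probes at 0.41 and 0.18, and 3 of them lost the call. With loess the 3 probes of H3f3a stood at 0.71, 0.43 and 0.37. The first of these gave 0.68, 0.65 and 0.79 in replicates 2 to 4 (SD 0.07, n = 3), its replicate 1 spot being set aside as an outlier by the scanner software. The 2 probes of H3f3b stood at 0.69 ± 0.11 (0.82, 0.71, 0.69 and 0.55, adjusted p = 0.001) and 0.37 ± 0.07. All 5 were among the brightest tested probes, brighter than 98.9% to 99.4% of them.

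H2afz encodes H2A.Z, a variant found beside transcription start sites. Its tested probe had the largest loess ratio of all histone probes, with 0.78, 0.94, 0.92 and 0.99 in replicates 1 to 4, a mean of 0.91 ± 0.09 (adjusted p = 0.00057), or 1.88 times the unstimulated level. Of all tested probes 53 had a higher ratio. H2afv, which encodes the second H2A.Z protein, was at 0.03 ± 0.11 and did not pass. The difference between these 2 genes was not tested. H2afj, a mammalian H2A variant, had 1 probe called higher at 0.20 ± 0.11 and another at 0.13 ± 0.05 that did not pass. The direction of the first depends on the dye normalization, since the scanner software's ratio for it averaged -0.035. Its call was lost without replicate 2, 3 or 4, at 0.17 to 0.19.

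H2afx encodes H2A.X, the variant that is phosphorylated at DNA breaks. It gave -0.50, -0.51, -0.53 and -0.42, a mean of -0.49 ± 0.05 (adjusted p = 0.0013), or 0.71 times the unstimulated level; the 4 arrays were close to each other. H2afy encodes macroH2A1, a large H2A variant of silent chromatin. Its probe A_52_P402989 gave -0.54, -0.61, -0.55 and -0.76 (mean -0.61 ± 0.10, adjusted p = 0.0012), while its other probes stood at -0.14 ± 0.07 and -0.15 ± 0.11 and did not pass. All 3 probes were below 0 on every array. H2afy3 was at -0.15 ± 0.10 and did not pass. Without replicate 1, H2afy3 (-0.19) and the H2afy probe at -0.15 (then -0.20) passed. Both also passed with the scanner software's ratio, at -0.39 and -0.25, and H2afy3 passed without the offset (-0.25) and with a trended robust fit (-0.15). With arrays only centred on their medians, which leaves the median of all tested probes at 0.43, H2afx was at 0.50 and was not called. The H2afy probe A_52_P402989 was then at 0.26 and the one at -0.15 with loess was at 0.25, and neither was called. The H2afy probe at -0.14 with loess was then at 0.79 and called higher.

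The linker variants held the largest fall. For H1fx, which encodes the linker histone H1.X, the bright probe A_52_P748854 gave -1.66, -1.23, -1.12 and -2.07, a mean of -1.52 ± 0.43 (adjusted p = 0.0017), or 0.35 times the unstimulated level. It was far below 0 on each array, and 13 of the 24104 tested probes had a lower ratio. The array's accession for this probe is an expressed sequence tag. The other H1fx probe, whose accession is the H1fx mRNA (now named H1f10), was dim (mean log2 intensity 7.33, against 14.5) and stood at 0.01 ± 0.10 (0.00, 0.06, 0.10 and -0.13). The 2 probes of this gene thus differed by 1.53. Before dye normalization the bright probe's signals were close in both colours: its background-corrected log2 ratios of Cy5 over Cy3 were -0.29, -0.02, 0.18 and -0.50. By the same measure the bright H2afz probe was at 2.55, 2.34, 2.43 and 2.68. The fall of H1fx is thus a fall against the loess trend, which at this brightness lay above 0 on every array.

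H1f0 encodes H1.0, the linker histone that accumulates in differentiated cells. Its 2 dimmer probes fell, with -0.17, -0.75, -0.91 and -1.16 (mean -0.75 ± 0.42, adjusted p = 0.012) and -0.14, -0.66, -0.78 and -0.87 (mean -0.61 ± 0.33, adjusted p = 0.011). On both, replicate 1 was the nearest to 0 and replicate 4 the lowest. The third probe of H1f0, the brightest, gave 0.31, 0.03, 0.02 and -0.25, a mean of 0.03 ± 0.23, and did not pass. It had the same order of arrays around another mean. With the scanner software's ratio the 2 dimmer probes stood at -1.12 and -1.13, still called lower, and the brightest at 0.01. Both calls of H1f0 were lost without replicate 2 (-0.75 and -0.59) and without replicate 3 (-0.69 and -0.56). H1foo, the oocyte linker gene, rose by 0.55 ± 0.44 (0.07, 0.51, 0.51 and 1.13; adjusted p = 0.032), lowest on replicate 1 and highest on replicate 4. Its call too was lost without replicate 2 or replicate 3, at 0.57 in both. H1fnt, of the male germ line, was near background at -0.08 ± 0.09 and did not pass.

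**Figure D2:**
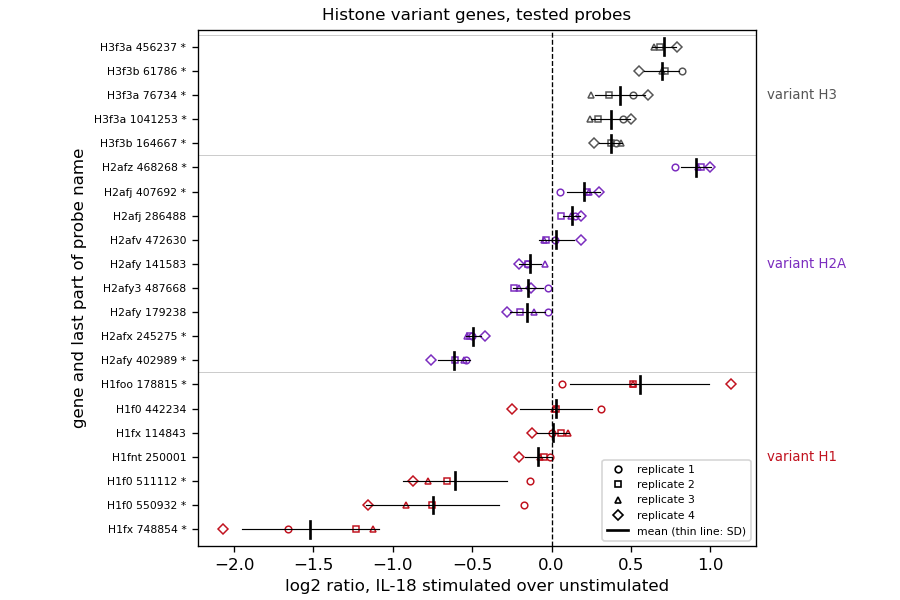
Log2 ratio of IL-18 stimulated over unstimulated cells (horizontal axis) for the 21 tested probes of histone variant genes (vertical axis: gene and last part of the probe's name), coloured by class. Open symbols are the 4 replicates, thick marks the mean, thin lines the SD, and an asterisk marks an adjusted p under 0.05; the H1fx probe at -1.52 lies apart from the other H1fx probe at 0.01.

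Several tested probes read 12 of the genes, and for 6 of these each probe was called higher with loess: H3f3a, H3f3b, Hist1h1d, Hist1h2af, Hist1h2bk and Hist1h4d. No gene had every probe called lower, and none had calls in both directions. The probe means of 2 genes, H1f0 and H1fx, lay more than 0.5 apart, and both owe their fall to some of their probes only. Between arrays the 60 histone ratios had Pearson correlations of 0.84 (replicates 1 and 4) to 0.97 (replicates 2 and 3), against 0.62 to 0.91 over all tested probes; these are across probes of shared libraries and describe the arrays. Means over the slide of replicates 1 and 2 and over that of replicates 3 and 4 were -1.45 and -1.60 for the bright H1fx probe, 0.86 and 0.96 for H2afz, and 0.87 and 0.77 for Hist2h2aa1. They were less alike for the lowest H1f0 probe (-0.46 and -1.04) and for H1foo (0.29 and 0.82).

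**Figure D3:**
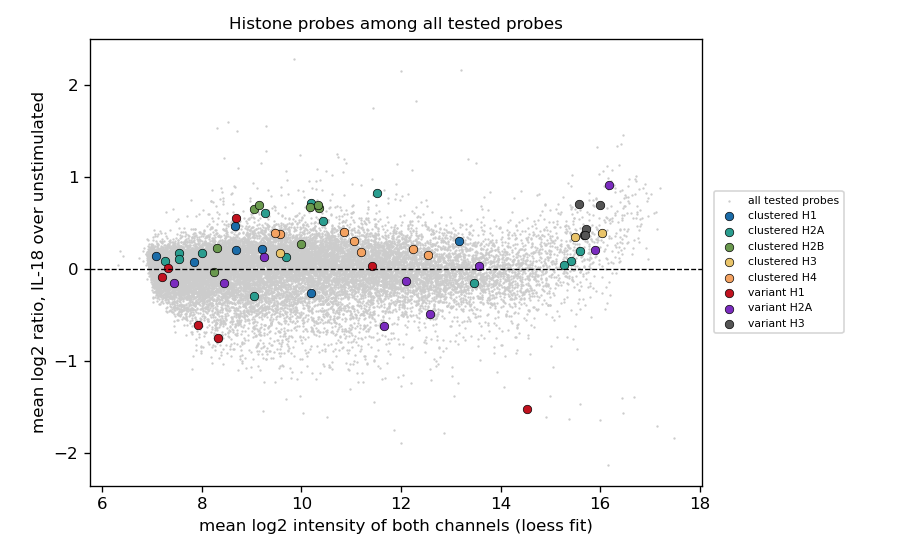
Mean log2 ratio of IL-18 stimulated over unstimulated cells (vertical axis) against mean log2 intensity of both channels (horizontal axis), for all 24104 tested probes (grey) and the 60 histone probes (coloured by class). The H3.3 probes lie at log2 intensities near 15.6 to 16.0, and the bright H1fx probe at 14.5 is far below the probes around it.

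The dye normalization moved these values. With the ratio that the scanner software had already normalized, 28 histone probes rose and 9 fell, where 26.4% of all tested probes rose and 21.1% fell. With each array only centred on its median, 48 histone probes rose and none fell in limma (0 also fell at an unadjusted p under 0.05), where 58.0% of all tested probes rose and 0.73% fell. That centring leaves the median of all tested probes at 0.43 and removes no trend with brightness. This 1 value is therefore no common reference for dim and bright probes. The median log2 intensity was 15.7 for H3.3 probes and 15.5 for clustered H3 probes, against 9.57 for H2B and 11.1 for H4. Under median centring the H3.3 median was 1.83, the clustered H3 median 1.73, the H2B median 1.20 and the H4 median 1.11. Under the scanner software's ratio they were 0.21, 0.18, 0.74 and 0.30. The H2B median was thus above the H3.3 median in 2 of the 3 normalizations and below it in the other. H2afz (0.91, 0.62 and 2.38 with loess, software and median centring) was above 0 in all of them, and the bright H1fx probe (-1.52, -1.55 and -0.28) was below 0 in all of them, with no call for H1fx under median centring.

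**Figure D4:**
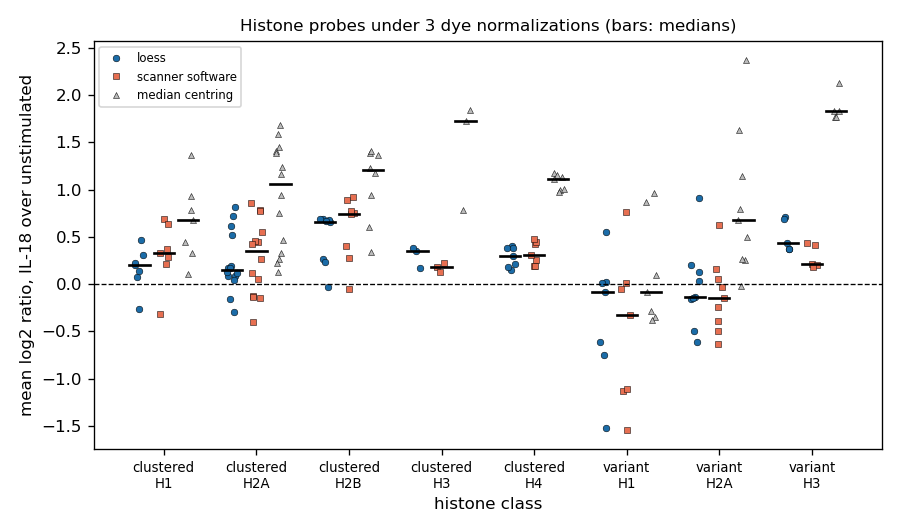
Mean log2 ratio of IL-18 stimulated over unstimulated cells (vertical axis) of the 60 tested histone probes by class (horizontal axis) under loess, the scanner software's ratio and median centring; bars are medians. Under median centring the H3.3 class has the highest median (1.83), while under the other 2 normalizations the H2B class has it (0.66 and 0.74).

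Related groups of genes were described beside the histones, each gene by its brightest tested probe. Of all 16970 tested genes 19.7% rose and 13.7% fell, with a median of 0.04. Of 18 tested genes for histone mRNA 3' processing and transcription 3 rose and 4 fell (median -0.10). Slbp, the stem-loop binding protein of histone mRNA, rose by 0.34 ± 0.07, while the cleavage factor genes Cpsf1 (-0.54 ± 0.24) and Cpsf2 (-0.41 ± 0.15) and Upf1 (-0.32 ± 0.10), a helicase of mRNA decay, fell. A further probe of Cpsf2 was called higher and another lower. Of 29 tested histone chaperone genes 2 rose and 4 fell (median -0.01). Hira, which deposits H3.3, fell by 0.72 ± 0.31 and Set by 0.36 ± 0.09. For each of these genes only 2 of 3 tested probes were called lower. Supt6h, which binds histones during transcription, rose by 0.33 ± 0.09 and the histone acetyltransferase Hat1 by 0.27 ± 0.17. Of 30 tested S phase genes 4 rose and 7 fell (median -0.02). Pcna, the sliding clamp of replication, rose by 0.51 ± 0.12, while Fen1 (-0.53 ± 0.24), Top2a (-0.37 ± 0.25) and the helicase subunit Mcm2 (-0.31 ± 0.21) fell. The clustered histone probes called higher were 27 of 39, and the difference between these shares was not tested. Cenpa, the centromeric H3 that the name rule does not take in, rose by 0.25 ± 0.08.

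RefSeq held 42 of the 47 genes by the accession of a probe and a promoter for 37 of them, 27 clustered and 10 variant. In the 150 bases before the start, the octamer ATTTGCAT stood on either strand in 7 of the 27 clustered promoters, 5 of 10 H2A and 2 of 5 H2B, and in 1.025% of 27025 mouse promoters. CCAAT stood on either strand in 24 of 27 clustered promoters, among them all 10 H2A and all 5 H2B, and in 25.27% of all promoters. TATAAA stood on the gene's strand in 11 of 27 clustered promoters and in 5.262% of all. No motif contains another. Among the clustered H2A genes the 4 tested genes with the octamer (Hist1h2aa, Hist1h2ab, Hist1h2ae and Hist3h2a) had mean ratios of -0.11 to 0.18, and the 5 without it (Hist1h2af, Hist1h2ai, Hist1h2ak, Hist2h2aa1 and Hist2h2ac) had 0.04 to 0.82. In the H2B class, Hist1h2bk and Hist1h2bm with the octamer had ratios of 0.68 and 0.67, and Hist1h2ba and Hist3h2ba without it had 0.65 and -0.03. Among the variants the 5 genes with CCAAT (H1foo, H2afj, H2afz, H3f3a and H3f3b) had mean ratios of 0.16 to 0.91. The 4 tested genes without it (H1f0, H1fnt, H1fx and H2afy) had -0.76 to -0.08. Unlike probes are averaged there: -1.52 and 0.01 for H1fx, and -0.75, -0.61 and 0.03 (the brightest) for H1f0. H2afx (-0.49), H2afv (0.03) and H2afy3 (-0.15) are in neither group, having no promoter among the 37. These splits were made after the ratios were seen and were not tested; a match is a match of letters and not a measured site.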

How the data were processed

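The histone genes, the other gene lists and the tests were chosen with earlier results of these data known. The intensities used (the mean brightness and median local background of each spot, in both colours) were made by the authors with Agilent Feature Extraction 9.1, per the file headers, and are uncorrected. The software's log10 ratio of each spot, corrected for background and dye per the file headers, and the deposited table of log10 ratios (which differs from it by at most 0.00496) served as alternatives. From these, background was corrected with normexp (offset 50), log2 ratios were normalized by loess within arrays, control spots and outliers carried no weight, and the spots of a probe were averaged. Probes well above background in 1 channel on 3 of 4 arrays, with 3 values, were fitted with limma 3.58.1 in R 4.3.3 (intercept, eBayes, two-sided, Benjamini-Hochberg over all tested probes, threshold 0.05). The ratio within an array is the difference within a pair, so this is the paired test. The labels pair each stimulated sample with its own control. Exact sign-flipping, whose lowest p with 4 arrays is 0.125, was not used. The steps were tested on simulated data. Named were all variant genes with a tested probe, the 5 probes with the largest ratios in size of each clustered class, genes whose probes lay over 0.5 apart, and up to 4 called genes of each other list; other members named were chosen after their values were seen. No gene coordinates beyond those of the printed promoters are given, since the files name no genome build.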

Additional observations from a re-analysis of the deposited data

Results flagged for a closer look

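Of 43 named histone probes with 4 values, 2 had an array far from the other 3 by Dixon's test at the 95% level, which chance alone gives for about 1 group in 20. Hist1h3a (A_51_P518621) was lowest on replicate 4, at a log2 ratio of 0.11 against 0.19 to 0.20 on the others, a gap of 0.87 of the range. Hist1h4d (A_51_P482070) was highest on replicate 3, at 0.55 against 0.31 to 0.35, a gap of 0.83 of the range.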

How the results depend on the processing

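The counts of 35 histone probes called higher and 8 called lower became 28 and 9 with the software's ratio, 28 and 9 with the deposited table, 34 and 8 without the offset, 36 and 9 with a trended robust fit, 35 and 8 with slide as a random block, and 28 and 6 with no replicate block (both colours as separate samples). Median centring gave 48 and 0. Over all 24104 tested probes these fits called 3366 (no replicate block) to 13970 (median centring) higher and 176 (median centring) to 5085 (software's ratio) lower. Leaving out 1 replicate at a time gave 20 to 35 higher and 3 to 9 lower: 20 and 3 without replicate 2, 20 and 4 without replicate 3. Calls over all tested probes then were 1387 higher and 904 lower of 23124 without replicate 2, and 1685 and 1258 of 23272 without replicate 3. Scale normalization between arrays gave 0 and 0 in limma, with 16 histone probes at an unadjusted p under 0.05 and 0 calls among all 24104 probes (5873 unadjusted). It multiplied the ratios of replicate 1 by 4.10 and those of replicates 2, 3 and 4 by 0.63, 0.69 and 0.56, because the median size of the ratios over all spots was 0.016 on replicate 1 and 0.094 to 0.12 on the others. Of 609 values of 44 named probes under 14 alternatives, 502 kept direction and side of the threshold, 82 kept the direction and lost the call, 11 gained it and 14 changed sign. Those that changed sign were, under median centring (median of all tested probes 0.43), H2afx at 0.50, H2afy at 0.79 (A_52_P141583), 0.26 (A_52_P402989) and 0.25 (A_52_P179238), Hist1h1e at 0.44 and Hist3h2a (A_51_P441377) at 0.23; H2afj (A_52_P407692) at -0.035 and H1fx (A_51_P114843) at -0.055, each with both the software's ratio and the deposited table; the same H1fx probe at -0.0072 without replicate 2 and -0.021 without replicate 3 (0.054 at most, without replicate 4); H1f0 (A_52_P442234) at -0.067 without replicate 1 (0.12 at most, without replicate 4); and H2afv at -0.022 without replicate 4 (0.057 at most, without replicate 3). The H1f0 and H1foo calls were lost without replicate 2 and without replicate 3.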
